A study of Mus musculus with 6 samples.

Results

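The immediate early genes of the AP-1 and Egr families are described here, 10 of the 35976 genes quantified in the series. They are the Fos family (Fos, Fosb, Fosl1 and Fosl2), the Jun family (Jun, Junb and Jund), the zinc finger genes Egr1 and Egr2, and Ier2, and they were chosen by name and not by a threshold on their values. All 10 were among the 17348 genes that passed the filter for testing, which asked for over 10 counts in 2 or more libraries. RNA was sequenced from satellite cells (SCs), the muscle stem cells, in 3 libraries from NF-YA cKO mice and 3 from NF-YA fl/fl mice as controls. NF-YA is the regulatory subunit of NF-Y, a trimeric transcription factor that binds CCAAT boxes in promoters. Both genotypes carried floxed NF-YA alleles and received tamoxifen (20 mg/ml in the labels, in mice 5 to 7 weeks old). The cKO mice also carried a Cre recombinase fused to a modified estrogen receptor under the Pax7 promoter, while the controls had no Cre, so that an effect of Cre cannot be told apart from the loss of NF-YA. SCs were enriched with magnetic beads that deplete endothelial, blood, myeloid and Sca1-positive cells, and were then grown for days in a medium rich in serum. The RNA is therefore that of cultured cells and not of SCs resting in muscle.

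Immediate early genes are transcribed within minutes of a stimulus such as serum, a growth factor or the enzymatic dissociation of a tissue, without new protein synthesis, and their mRNAs are short-lived. Fos and Jun proteins carry a basic leucine zipper and pair with each other to form AP-1. Fos proteins need a partner from the Jun family, whereas Jun proteins can also pair among themselves. Egr proteins bind GC-rich DNA through zinc fingers and share with Fos the induction through MAP kinases, Elk factors and serum response factor (SRF). In SCs, Fos, Jun and Egr1 mRNAs are among the first to appear when muscle is dissociated or injured.

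Since NF-Y binds CCAAT, the bases just before the start of transcription are shown for 4 members, from RefSeq (GRCm38.p6). They are the members whose 250-base windows held a CCAAT (Jun, Junb and Egr2) and Fos, which had the lowest fold change and whose window held none. Each stretch of 110 bases is written 5′ to 3′ on the strand of the gene and ends at the base before the RefSeq start. Capitals mark matches on either strand. CCAAT is the core of the NF-Y site and TGACGT that of the cyclic AMP response element. A longer AP-1-like site was searched as TGACNTCA, the TATA box as TATAAA, and the site of SRF by its name, the CArG box.
Fos, chr12:85473780-85473889, plus strand: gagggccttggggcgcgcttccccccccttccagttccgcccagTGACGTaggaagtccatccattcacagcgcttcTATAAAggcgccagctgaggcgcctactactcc
Jun, chr4:95052223-95052332, minus strand: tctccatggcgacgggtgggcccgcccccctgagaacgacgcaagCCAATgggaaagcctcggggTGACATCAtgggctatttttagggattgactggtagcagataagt
Junb, chr8:84978749-84978858, minus strand: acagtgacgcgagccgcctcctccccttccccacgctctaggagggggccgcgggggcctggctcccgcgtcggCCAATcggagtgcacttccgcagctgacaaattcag
Egr2, chr10:67537759-67537868, plus strand: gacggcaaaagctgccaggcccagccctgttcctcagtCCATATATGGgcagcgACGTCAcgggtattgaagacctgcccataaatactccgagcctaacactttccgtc

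The CCAAT of Jun began 65 bases before the start, that of Junb 36 bases, and that of Egr2, on the other strand, 121 bases, outside the stretch shown. Of the 7 members with a window in the RefSeq table (Fos, Fosb, Fosl2, Jun, Junb, Jund and Egr2), 3 held CCAAT in the 250 bases, against 34.5% of the windows of 27025 genes. TGACGT was found in Fos and Egr2 (6.56% of all windows), TGACNTCA in Jun (7.59%), TATAAA in Fos (12.97%) and the CArG box in Egr2 (1.40%). The AP-1 site TGANTCA, present in 6.87% of windows, and the Egr site GCGTGGGCG, in 0.540%, were found in none of the 7. Bases farther upstream than 250 were not searched, nor were Egr1, Fosl1 and Ier2, so a motif missing here, such as the CArG box in Fos, may lie outside the windows. None of the motifs in capitals overlapped another. The RefSeq start was also that of a counted transcript for Fos, Jun and Egr2. For the others the nearest counted start was 6 bases (Fosb), 30 bases (Junb), 671 bases (Fosl2) and 1210 bases (Jund) away. A match is a run of letters and not a bound site, and no binding was measured in these libraries.

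Library totals were between 26936230 and 41118984 counts, and 3 counts equal 0.0705 to 0.115 CPM, far below every value of the 10 genes. CPM are counts divided by the size of the library, so they compare libraries and not genes of different length, while TPM also divide by transcript length. The entry that the authors had added for the deleted Nfya allele took 27.3%, 32.0% and 40.5% of Nfya TPM in the NF-YA cKO libraries and was at 0 in all NF-YA fl/fl libraries. The genotypes also differed in the levels of cell type markers. All 15 markers of differentiated muscle tested were lower in NF-YA cKO (summed level 669 to 1480 CPM, against 48471 to 59778 CPM; Myog 10.7 to 31.4 CPM against 584 to 1450 CPM). Of 14 macrophage markers tested 13 were higher (summed level 167 to 318 CPM, against 11.2 to 20.6 CPM), among them Ptprc, Adgre1 and Lyz2, all 3 near 0 to a few CPM in the controls. Of the fibro-adipogenic markers 1 of 10 was called, higher, of the endothelial 1 of 9 higher and 1 lower, and of the smooth muscle and pericyte markers 1 of 8, Acta2, lower. Of 8 SC and myoblast markers tested 2 were called, both lower (summed level 1704 to 1845 CPM in NF-YA cKO, against 2371 to 3995 CPM). The SC marker Pax7 was at 145 to 201 CPM in NF-YA cKO against 73.5 to 105 CPM in the controls. Pax7 was thus higher in NF-YA cKO but was not called, with a log2 fold change of 0.94. Xist was at 836 to 852 CPM in NF-YA cKO against 0.306 to 0.475 CPM in the controls, and the Y-linked Ddx3y the other way round, so that genotype and sex cannot be told apart.

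NF-YA fl/fl replicate 3 stood apart from the other controls. It had the lowest level of the 3 controls in 6 of the 10 genes, against 38.0% of all tested genes, and the highest in 3. Its Myod1 was at 1146 CPM against 361 and 295 CPM, its Pdgfra, a marker of fibro-adipogenic cells, at 21.6 CPM against 132 and 147 CPM, and its fibro-adipogenic markers summed to 1480 CPM against 3814 and 4685 CPM. The part of these differences in the levels below was not tested, and each of the 10 genes is given with and without this library. Of the marker lists, without it 12 macrophage markers were called higher, 2 fibro-adipogenic markers higher and 1 lower, 4 smooth muscle and pericyte markers lower, and 2 SC and myoblast markers higher and 2 lower. Over the 9457 genes whose mean reached 10 CPM, the median coefficient of variation was 15.2% in NF-YA fl/fl and 4.73% in NF-YA cKO, and 9 of the 10 genes also varied more in NF-YA fl/fl. In bulk RNA, fewer cells of a type and less RNA per cell cannot be told apart.

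The comparison between the genotypes asks which genes depend on NF-YA. Calls rest on edgeR's quasi-likelihood test, with an FDR (the adjusted p) under 0.01 and a change of more than 1 on the log2 scale in either direction. None of the 10 genes was called in either direction, against 4.65% of all tested genes called higher and 7.67% called lower. An unadjusted p under 0.05 was found for 5 of them, against 48.7% of all tested genes, and DESeq2 called 2, Fos and Egr1, both lower (background 10.4% lower and 5.68% higher). With the FDR under 0.05 and no limit on the fold change, 4 of the 10 were lower in NF-YA cKO (Fos, Egr1, Fosl2 and Jund), against 18.9% of all tested genes, and 1 was higher (Fosl1), against 19.7%. The same 4 genes had every NF-YA cKO library below every control, as had 26.2% of all tested genes, and Fosl1 had every one above, as had 29.1%. In the other 5 the groups overlapped. The median log2 fold change of the 10 was -0.36 and that of all tested genes -0.02, with 9 of the 10 below 0.

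**Figure D1:**
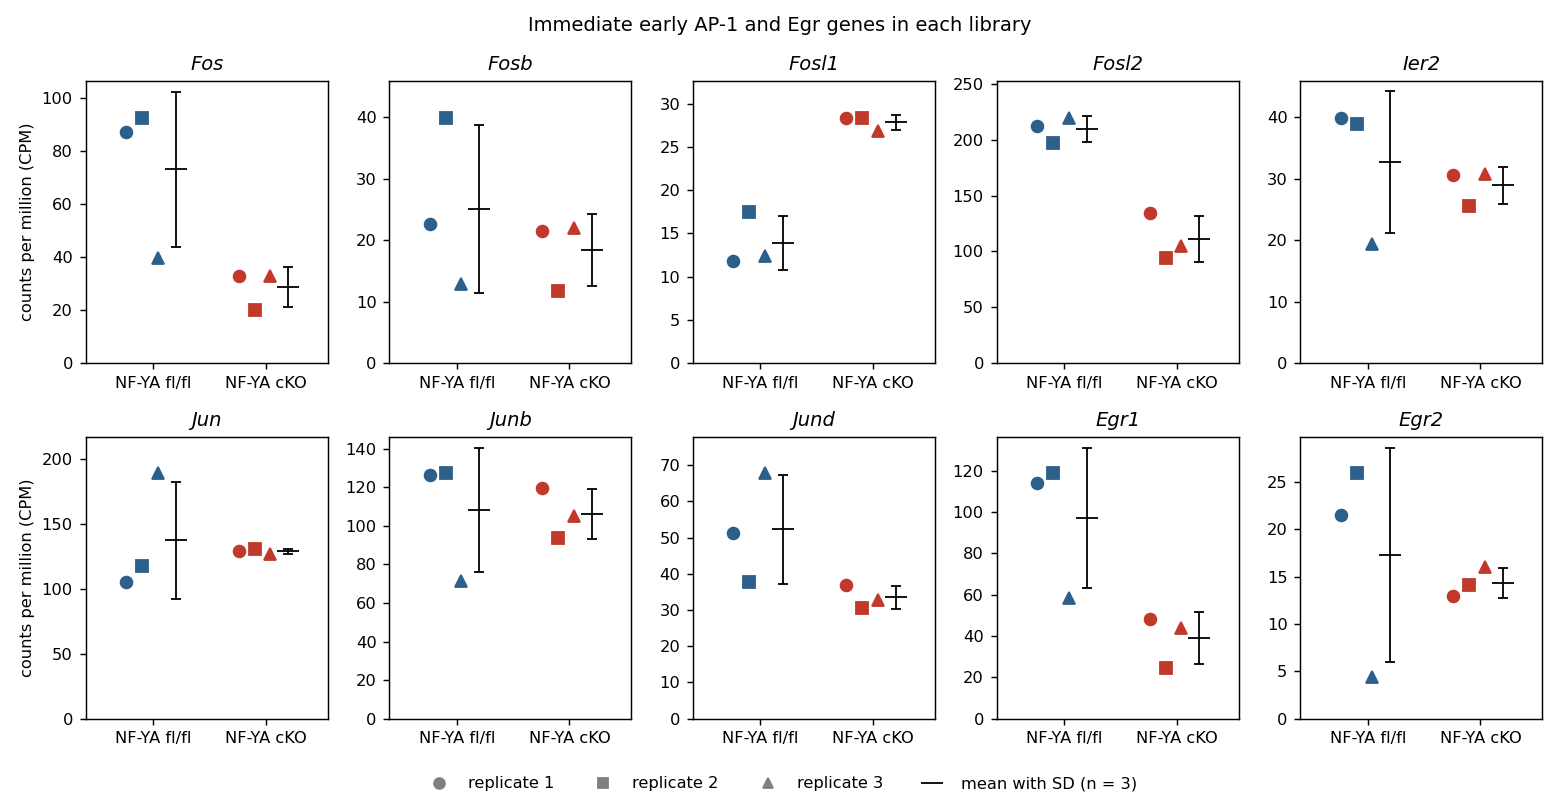
Level of each gene in every library, in CPM on axes that start at 0, for NF-YA fl/fl (blue) and NF-YA cKO (red); symbols give the replicate number and the bar the mean with its SD (n = 3). Fos, Egr1, Fosl2 and Jund show no overlap with NF-YA cKO lower, Fosl1 none with NF-YA cKO higher, and control replicate 3 (triangle) lies below the other 2 controls for Fos, Fosb, Junb, Egr1, Egr2 and Ier2.

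Fos, on chr12:85473890-85477273, encodes the founding member of AP-1, whose mRNA is induced and lost within an hour of a stimulus. It was at 33.03, 20.05 and 33.04 CPM in NF-YA cKO replicates 1 to 3 and at 87.3, 92.7 and 39.6 CPM in the controls. The NF-YA cKO libraries were all below the controls, but the third control lay much closer to them than to the other controls. The mean was 28.7 ± 7.50 CPM in NF-YA cKO against 73.2 ± 29.2 CPM in the controls (SD, n = 3), a ratio of 2.55 in favor of the controls. In edgeR this gave a log2 fold change of -1.35 ± 0.35 (SE) with an FDR of 0.0223, which missed the limit of 0.01. DESeq2 gave an FDR of 0.000573. When NF-YA fl/fl replicate 3 was left out, edgeR gave -1.65 with an FDR of 0.00119, and Fos was called lower. With each of the other libraries left out in turn, it gave -1.50 to -1.15 with an FDR of 0.0512 to 0.0768.

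Egr1, on chr18:34859823-34864984, encodes the Egr factor induced by serum through SRF sites in its promoter. It was at 48.4, 24.5 and 43.8 CPM in NF-YA cKO and at 114, 119 and 58.1 CPM in the controls. The order of the libraries was close to that of Fos, with NF-YA cKO replicate 2 the lowest and control replicate 3 nearest to the NF-YA cKO libraries. The mean was 38.9 ± 12.6 CPM in NF-YA cKO against 97.0 ± 33.7 CPM in the controls (SD, n = 3). Its log2 fold change was -1.32 ± 0.34 (SE) with an FDR of 0.0228 in edgeR, and DESeq2 gave an FDR of 0.000623. It was -1.59 with an FDR of 0.00291 in edgeR without NF-YA fl/fl replicate 3, which is a call. Among all 17170 genes tested without that library, 9.81% were called lower and 4.97% higher, and Fos and Egr1 were the 2 members called. With each of the other libraries left out in turn, Egr1 was at -1.54 to -1.11 with an FDR of 0.0401 to 0.0742.

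Fosl2, on chr5:32135801-32157842, encodes Fra-2, a Fos protein without the strong transactivation domain of Fos and with a slower induction. It was the Fos family gene with the highest read level, at 134, 93.7 and 105 CPM in NF-YA cKO and at 213, 197 and 220 CPM in the controls. The groups were well apart, and here control replicate 3 was the highest library. The mean was 111 ± 20.9 CPM against 210 ± 11.5 CPM (SD, n = 3). The log2 fold change of -0.92 ± 0.14 (SE) had an FDR of 0.00365 in edgeR, which passed the FDR limit and not the fold limit. Leaving out NF-YA fl/fl replicate 3 gave -0.89 with an FDR of 0.00325. Without NF-YA cKO replicate 1 it was -1.10 with an FDR of 0.00412, which is a call.

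Fosl1, on chr19:5447547-5455946, encodes Fra-1, which like Fra-2 lacks a strong transactivation domain, and which accumulates in cells with lasting ERK signaling. It was the only one of the 10 with a higher mean in NF-YA cKO, at 28.4, 28.3 and 26.8 CPM against 11.8, 17.5 and 12.4 CPM. The NF-YA cKO libraries lay within a narrow range above all controls. The mean was 27.8 ± 0.869 CPM against 13.9 ± 3.13 CPM (SD, n = 3), a ratio of 2.001. At 0.999 ± 0.17 (SE), the log2 fold change was just under the limit of 1, with an FDR of 0.00469 in edgeR. It was 0.92 without NF-YA fl/fl replicate 3 and 1.19 without NF-YA fl/fl replicate 2 (FDR 0.000942), and it was called only in the latter case. The gene overlaps Ccdc85b on the opposite strand, and whether the reads were counted by strand is not given in the sources used here.

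Fosb, on chr7:19302696-19310051, encodes the Fos protein most closely related to Fos and, by splicing, the shorter FosB isoform without the C-terminal part. It was at 21.6, 11.7 and 22.0 CPM in NF-YA cKO and at 22.6, 39.9 and 12.9 CPM in the controls. The groups overlapped, with control replicate 3 near the lowest NF-YA cKO library. The 95% confidence interval of the log2 fold change of -0.45 ran from -1.46 to 0.56 (edgeR FDR 0.435). It was -0.77 with an FDR of 0.0903 without NF-YA fl/fl replicate 3, and its sign turned, at 0.05, without NF-YA fl/fl replicate 2. Of the 3 Fosb transcripts quantified, that of 3776 nt took 95.8%, 80.5% and 86.9% of the gene's TPM in NF-YA cKO and 90.35%, 93.02% and 100% in NF-YA fl/fl. That of 3523 nt took 10.7% ± 6.19 and 5.19% ± 4.87 (SD, n = 3; exact permutation test, two-sided, p = 0.3). This difference of 5.55 percentage points was 2.95 without NF-YA fl/fl replicate 3.

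Jun, on chr4:95049034-95052222, encodes c-Jun, the partner of Fos proteins and a substrate of JNK. It was at 129, 131 and 127 CPM in NF-YA cKO and at 106, 118 and 189 CPM in the controls. The NF-YA cKO libraries lay between the controls, of which replicate 3 was far above the others. The coefficient of variation was 1.69% in NF-YA cKO and 32.9% in NF-YA fl/fl. Its log2 fold change was -0.09, with a 95% confidence interval from -0.60 to 0.42 and an FDR of 0.759 in edgeR. Without that control it was 0.20, with an interval from 0.02 to 0.38 and an FDR of 0.0614. The antisense gene Junos overlaps Jun on the other strand.

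Junb, on chr8:84974484-84978718, encodes a Jun protein that activates less strongly than c-Jun and can restrain it. It was at 120, 93.6 and 105 CPM in NF-YA cKO and at 126, 127 and 71.3 CPM in the controls. Control replicate 3 was the lowest of the 6 libraries and the other 2 controls were the highest. In edgeR, the log2 fold change of -0.03 had a 95% confidence interval from -0.57 to 0.51 and an FDR of 0.932. With NF-YA fl/fl replicate 3 left out it was -0.26, with an interval from -0.52 to -0.005 and an FDR of 0.0838. Junb overlaps Prdx2 on the opposite strand.

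Jund, on chr8:70698949-70700616, encodes the most steadily expressed Jun protein, found in resting as well as in dividing cells. It was at 36.9, 30.6 and 32.9 CPM in NF-YA cKO and at 51.3, 37.8 and 67.8 CPM in the controls. The groups did not overlap, by a margin of less than 1 CPM between the highest NF-YA cKO and the lowest control library. The log2 fold change of -0.64 ± 0.21 (SE) had an FDR of 0.0483 in edgeR. It was -0.42 with an FDR of 0.0528 when NF-YA fl/fl replicate 3 was left out. Leaving out NF-YA fl/fl replicate 2 instead, the lowest control, gave -0.84 with an FDR of 0.00846. The 2 Jund transcripts quantified have the same length and shared the reads equally in every library, so they could not be told apart.

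Egr2, on chr10:67535475-67542188, encodes a zinc finger factor best known from Schwann cells, where it drives myelin genes. It was at 12.9, 14.1 and 16.0 CPM in NF-YA cKO and at 21.5, 25.9 and 4.44 CPM in the controls. The first 2 controls were above all NF-YA cKO libraries and the third was below all of them, a spread of 5.83 times within the controls. The log2 fold change was -0.27, with a 95% confidence interval from -1.57 to 1.04 and an FDR of 0.725 in edgeR. With only the first 2 controls it was -0.73 with an FDR of 0.00502, which passed the FDR limit and not the fold limit. Leaving out NF-YA fl/fl replicate 2 instead turned its sign, at 0.14. The main transcript, of 2965 nt and 1 of 9 quantified, took 87.8% ± 4.56 of Egr2 TPM in NF-YA cKO and 86.0% ± 11.4 in NF-YA fl/fl (SD, n = 3; exact permutation test, two-sided, p = 0.9). That difference of 1.83 percentage points turned to -4.72 without control replicate 3. The Schwann cell markers, with 9 tested, had 5 called higher (6 without that library) and 1 called lower in NF-YA cKO, and summed to 106 to 122 CPM in NF-YA cKO against 156 to 229 CPM in the controls.

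Ier2, on chr8:84661331-84662852, encodes a small nuclear protein of the immediate early response. It was at 30.5, 25.5 and 30.7 CPM in NF-YA cKO and at 39.9, 38.8 and 19.4 CPM in the controls. As for Egr2 and Junb, the first 2 controls were above all NF-YA cKO libraries and the third below all of them. Its log2 fold change was -0.18, with a 95% confidence interval from -0.82 to 0.46 and an FDR of 0.628 in edgeR. When control replicate 3 was left out it was -0.45 with an FDR of 0.0128. In that fit the median log2 fold change of the 10 genes was -0.59.

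**Figure D2:**
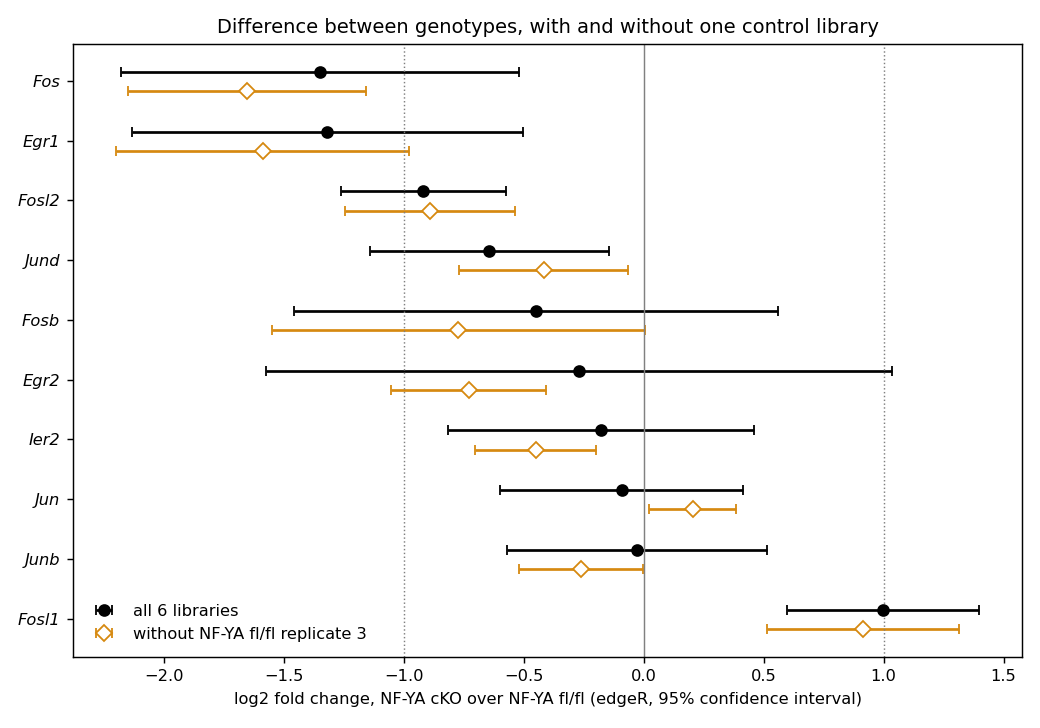
The log2 fold change of NF-YA cKO over NF-YA fl/fl (x axis, edgeR) of each gene, with its 95% confidence interval, from all 6 libraries (black) and without NF-YA fl/fl replicate 3 (orange diamonds); dotted lines mark the limits of -1 and 1. Fos and Egr1 move from -1.35 and -1.32 to -1.65 and -1.59, the interval of Egr2 shrinks to -1.05 to -0.41, and Fosl1 stays on the right at 0.999 and 0.92.

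On the TPM scale, which corrects for length and allows levels of different genes to be compared, Junb was the most abundant of the 10 in both genotypes, at 68.1 ± 13.6 TPM in NF-YA cKO and 76.1 ± 33.1 TPM in the controls (SD, n = 3). Jun followed, at 45.5 ± 3.41 and 50.2 ± 9.99 TPM. In NF-YA fl/fl, Fos (45.3 ± 23.9 TPM), Fosl2 (41.6 ± 5.63 TPM) and Egr1 (39.5 ± 19.0 TPM) came next, and neighbors in this order overlapped, from Junb down to Jund at 21.2 ± 2.11 TPM. Jund was above Fosl1 (10.6 ± 4.40 TPM) in all 3 controls with no overlap, and Fosb (8.52 ± 6.05 TPM) and Egr2 (6.58 ± 5.20 TPM) were the lowest.

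In NF-YA cKO the first ranks were clear, with Junb above Jun and Jun above all others in each library without overlap. Then came Ier2 (22.9 ± 4.09 TPM), Fosl2 (20.9 ± 5.45 TPM), Fosl1 (19.3 ± 1.59 TPM), Fos (16.1 ± 5.26 TPM), Egr1 (14.5 ± 5.64 TPM) and Jund (13.2 ± 2.28 TPM), where neighbors overlapped. Fosb (5.57 ± 2.08 TPM) and Egr2 (4.49 ± 0.914 TPM) were again the lowest. Thus Fos was in the third place of the controls and the sixth of NF-YA cKO, while Fosl1 was in the eighth and the fifth.

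The makeup of the Fos family mRNA pool was compared as the share of each gene in the summed TPM of the 4 genes. Fosl1 made up 28.4%, 38.0% and 29.5% of the pool in NF-YA cKO and 7.97%, 10.9% and 11.4% in NF-YA fl/fl. These shares did not overlap, and their means were 31.9% ± 5.26 and 10.1% ± 1.84 (SD, n = 3), with p = 0.1 in a two-sided exact permutation test, which is the lowest value that 3 libraries against 3 allow. Fos made up 26.4%, 21.5% and 29.0% in NF-YA cKO and 47.0%, 45.8% and 29.0% in NF-YA fl/fl. The third control lay at the upper edge of the NF-YA cKO range, with a difference in the second decimal (exact permutation test, two-sided, p = 0.1). The ratio of Fosl1 to Fos TPM was 1.08, 1.77 and 1.02 in NF-YA cKO and 0.170, 0.237 and 0.393 in NF-YA fl/fl, again without overlap (exact permutation test, two-sided, p = 0.1). Fosl1 was thus as abundant as Fos or more so in each NF-YA cKO library, and less abundant in each control. As shares of counts, which weight longer transcripts more, Fosl1 made up 15.3% and 4.32% of the family. Leaving out control replicate 3 moved the Fosl1 difference from 21.9 to 22.5 percentage points and that of Fos from -15.0 to -20.8.

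Fosl2 took 33.7% ± 2.46 of the pool in NF-YA cKO and 42.0% ± 11.3 in NF-YA fl/fl, and Fosb 8.78% ± 1.85 and 7.37% ± 2.84 (SD, n = 3), both with overlap. The summed TPM of the family was 74.0, 46.9 and 65.0 in NF-YA cKO and 108, 144 and 65.9 in NF-YA fl/fl. Control replicate 3 lay within the NF-YA cKO range and the other 2 controls above it. In the Jun family, Junb took 53.4% ± 2.64 and 50.03% ± 15.03, Jun 36.2% ± 2.86 and 35.1% ± 11.4, and Jund 10.4% ± 0.218 and 14.9% ± 4.20 (SD, n = 3). The groups were apart for Jund alone (exact permutation test, two-sided, p = 0.1), and the control shares of Jun ran from 27.0% to 48.1%. Leaving out control replicate 3 moved the difference from -8.28 to -1.997 percentage points for Fosl2, from 1.41 to 0.249 for Fosb and from -4.47 to -2.31 for Jund. It moved that of Jun from 1.06 to 7.58, and that of Junb turned from 3.41 to -5.27. Of the 7 shares compared, none can reach a p below 0.1 with this number of libraries. The summed TPM of the Jun family was 145, 107 and 128 in NF-YA cKO and 145, 176 and 121 in NF-YA fl/fl, with overlap.

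**Figure D3:**
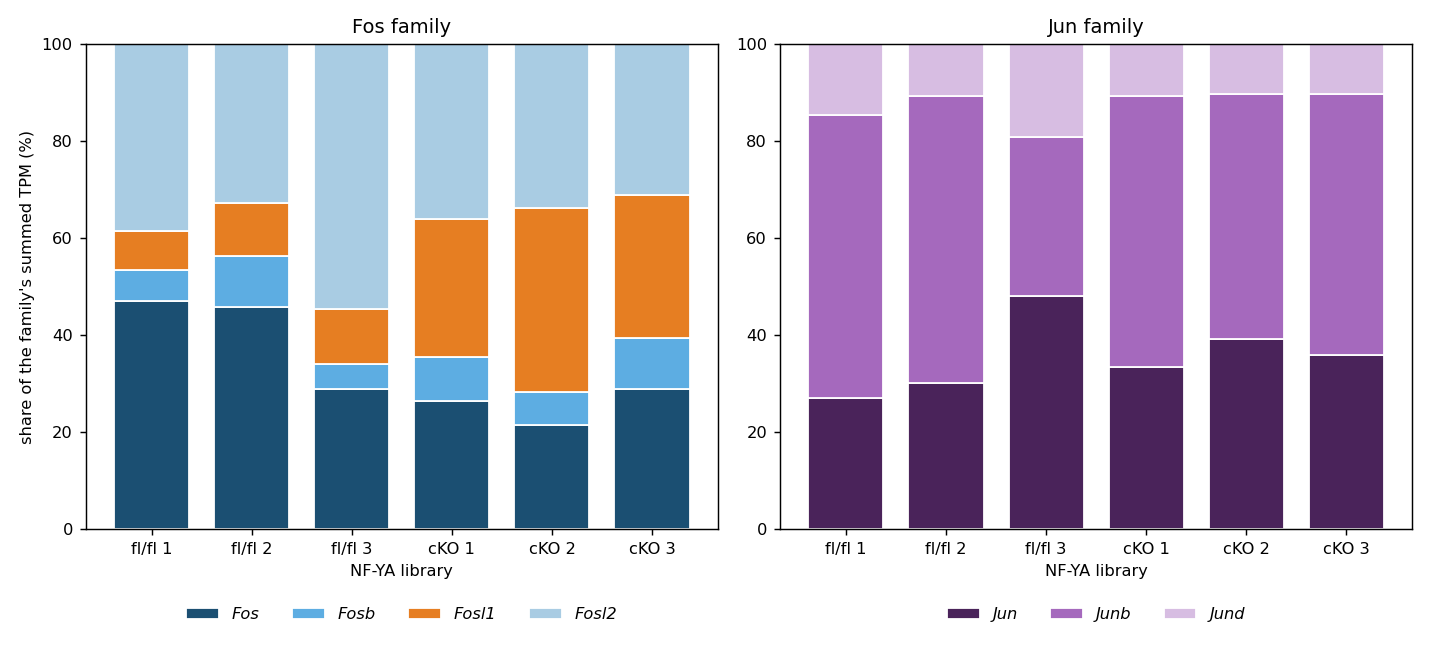
Share of each gene in the summed TPM (y axis, percent) of the Fos family (left) and the Jun family (right), 1 bar per library. The Fosl1 part (orange) is 28.4% to 38.0% in the NF-YA cKO bars and 7.97% to 11.4% in the NF-YA fl/fl bars, and the Jun part of control replicate 3 reaches 48.1%.

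Genes with a profile like that of each member were found from the root mean square (RMS) difference of log2(CPM + 0.5), centred on each gene's mean, over the 6 libraries. Fos and Egr1 were each other's nearest gene among 9456 genes, with a difference of 0.0963, against a median of 0.877 between Fos and all genes. The second nearest gene of both was Fst, which encodes follistatin, an antagonist of myostatin and activin. Fst was at 30.3, 17.6 and 23.9 CPM in NF-YA cKO and at 72.5, 74.8 and 38.5 CPM in the controls. Its level in control replicate 3 was thus also nearer to the NF-YA cKO libraries than in the other 2 controls.

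The other members were not each other's nearest genes. Ier2 was the nearest member to Junb, at rank 14 with a difference of 0.102, behind Magi3 (0.0317) and Cald1 (0.0400). Fosl1 was closest to Cdca2 (0.0313) and Srsf2 (0.0512), the first a regulator of chromosome condensation in mitosis and the second a splicing factor. Fosl2 was closest to Fhl1 (0.0634) and Klf3 (0.0699), and Egr2 to Adamts12 (0.122). Jun was closest to Ccdc163 (0.0416) and Nup214 (0.0553), Jund to Sft2d2 (0.0621) and Zbtb39 (0.0758), Fosb to Ror1 (0.203) and Adamts2 (0.228), and Ier2 to Selm (0.0382) and Sc5d (0.0669). These are descriptions over 6 libraries that share their genotype groups.

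Other immediate early genes were listed as a group of 32, of which 31 were tested and Egr4 was not. With all libraries, 1 was called lower and 1 higher, against 7.67% and 4.65% of all tested genes. The median log2 fold change of the 31 was -0.04. The gene called lower was Nr4a3, an orphan nuclear receptor, at 2.20, 1.54 and 2.66 CPM in NF-YA cKO and 16.9, 7.73 and 44.0 CPM in the controls (log2 fold change -3.42, FDR 0.00703 in edgeR). Unlike Fos, it was highest in control replicate 3. The gene called higher was Klf10, a TGF-beta-induced zinc finger factor, at 90.5, 111 and 108 CPM against 36.2, 49.7 and 35.3 CPM (log2 fold change 1.35, FDR 0.00148).

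Without NF-YA fl/fl replicate 3, 5 of the 31 were called lower and 1 higher, against 9.81% and 4.97% of all genes tested without it. The median of the 31 was -0.09. Nr4a3 was then at -2.52 on the log2 scale, with an FDR of 0.00205 in edgeR. Besides it, the genes called lower were Egr3, Nr4a1, Arc and Zfp36, chosen here after their values were seen. Egr3 was at 4.43, 3.38 and 4.61 CPM in NF-YA cKO and at 15.1, 14.7 and 2.24 CPM in the controls. Arc was at 1.21, 1.16 and 1.95 CPM and at 11.3, 12.3 and 1.73 CPM. In both, the third control was within or below the NF-YA cKO range while the other 2 were far above it. For Zfp36, which encodes a protein that destabilizes mRNAs with AU-rich elements, the controls were at 21.3, 29.8 and 7.90 CPM and the NF-YA cKO libraries at 6.68 to 11.7 CPM. Nr4a1 was at 14.1 to 26.0 CPM in NF-YA cKO and at 44.8, 71.8 and 30.9 CPM in the controls, with no overlap. Control replicate 3 was the lowest control in 18 of the 31 genes, against 38.0% of all tested genes.

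**Figure D4:**
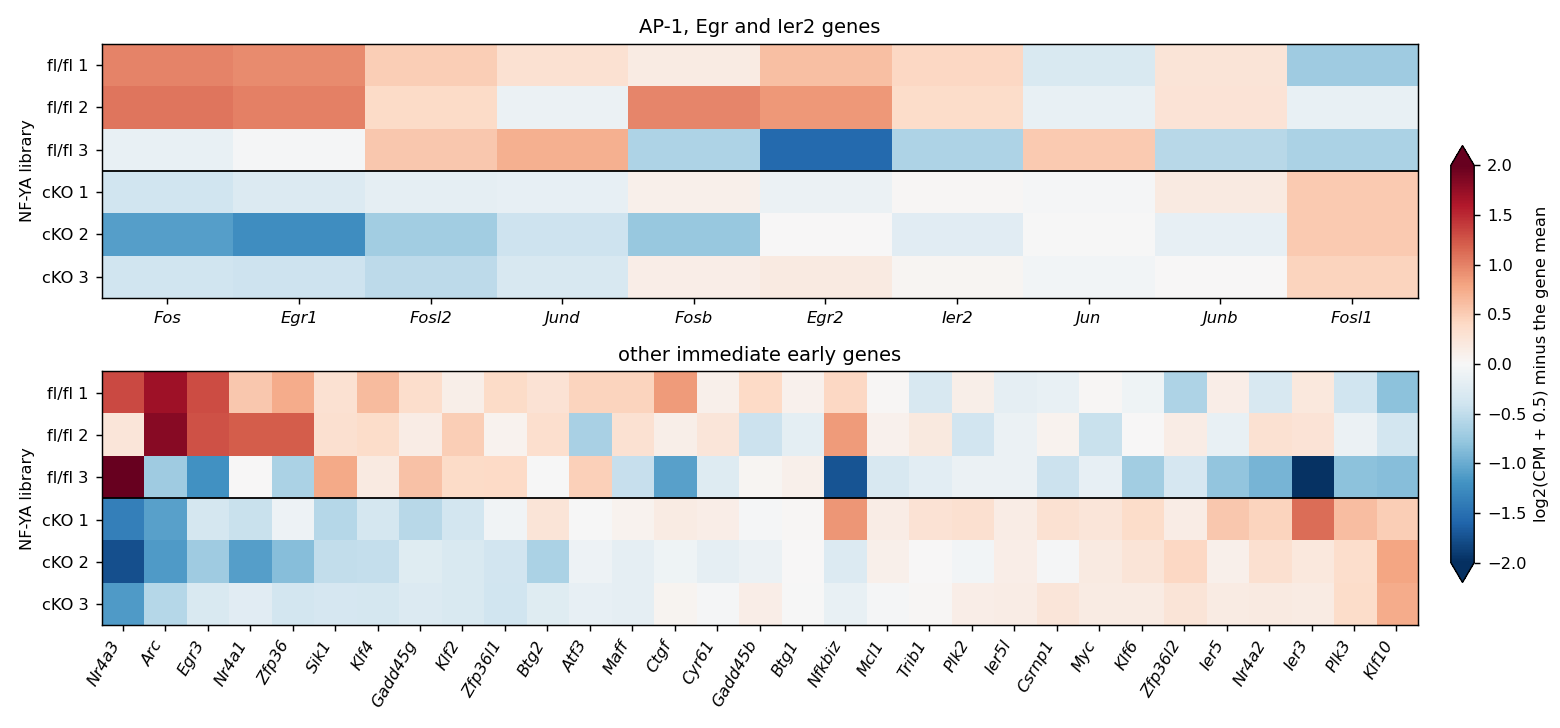
Level of each gene in each library as log2(CPM + 0.5) minus the gene's mean over the 6 libraries (color, red above and blue below), for the 10 genes (top) and 31 other immediate early genes (bottom), each sorted by log2 fold change; Cyr61 and Ctgf are the older names of Ccn1 and Ccn2. The row of control replicate 3 differs from the other controls, with blue for Egr2, Arc, Egr3, Zfp36 and Ier3 and the deepest red of the controls for Nr4a3 and Jund.

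Of 30 genes upstream of these factors, the MAP kinase cascade and SRF with its cofactors, none was called in edgeR (background 4.65% higher and 7.67% lower). DESeq2 called 0, and 11 had an unadjusted p under 0.05 in edgeR, against 48.7% of all tested genes. Map2k1, which encodes the kinase MEK1, was at 138, 128 and 124 CPM in NF-YA cKO and at 137, 117 and 166 CPM in the controls (log2 fold change -0.10, FDR 0.585 in edgeR). Its groups overlapped, and mRNA levels say nothing of the phosphorylation of kinases.

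Of 16 feedback inhibitors of this pathway, 2 were called higher and 1 lower, against 4.65% and 7.67% of all tested genes. Dusp4, a nuclear phosphatase of ERK, was at 143, 176 and 155 CPM in NF-YA cKO and at 66.6, 75.6 and 83.1 CPM in the controls (log2 fold change 1.07, FDR 0.00125 in edgeR). Errfi1, an inhibitor of the EGF receptor, was at 445, 442 and 368 CPM against 163, 216 and 139 CPM (1.28, FDR 0.00243). Dusp8, a phosphatase of JNK and p38, was at 7.62, 7.79 and 7.73 CPM against 17.3, 14.96 and 29.9 CPM (-1.42, FDR 0.00671). The median of the 16 was 0.06. With control replicate 3 left out it was -0.02, and 3 were called higher and 1 lower (4.97% and 9.81% of all genes tested). The additional one was Dusp5, a nuclear phosphatase of ERK, at 32.1, 24.2 and 26.1 CPM against 10.4, 13.3 and 3.83 CPM (1.58 with an FDR of 0.0225 from all libraries, 1.21 with an FDR of 0.00174 without that control).

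Among 13 tested leucine zipper genes of related families (of 16 listed), 1 was called lower and none higher, against 7.67% and 4.65% of all tested genes. The median log2 fold change of the 13 was 0.15. The most abundant were Atf4 and Nfe2l2. Atf4, the effector of the integrated stress response, was at 613, 661 and 600 CPM in NF-YA cKO and at 345, 289 and 444 CPM in the controls (log2 fold change 0.80, FDR 0.00960 in edgeR). The Atf4 groups did not overlap, and its fold change was under the limit. Nfe2l2, which encodes the antioxidant regulator Nrf2, was at 220, 178 and 174 CPM and at 173, 151 and 149 CPM (0.27, FDR 0.124).

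Of 22 textbook targets of AP-1 and Egr factors, 4 were called higher in NF-YA cKO and none lower, against 4.65% and 7.67% of all tested genes. The median log2 fold change of the 22 was 0.78. DESeq2 called 6 higher and 0 lower (background 5.68% higher and 10.4% lower), and edgeR found 10 with an unadjusted p under 0.05, against 48.7% of all tested genes. The called genes were Mmp9, a gelatinase (15.6, 10.5 and 6.56 CPM against 0.459, 0.952 and 0.0679 CPM, log2 fold change 4.42, FDR 0.00374), and Areg, a ligand of the EGF receptor (10.5, 10.8 and 8.53 CPM against 2.14, 3.45 and 1.29 CPM, 2.11, FDR 0.00435). Plaur, the urokinase receptor, was at 126, 112 and 111 CPM against 48.7, 58.0 and 27.7 CPM (1.38, FDR 0.00646). Ccnd1, which encodes cyclin D1, was at 535, 651 and 534 CPM against 179, 340 and 263 CPM (1.14, FDR 0.00937). Control replicate 3 was the lowest control in 17 of the 22, against 38.0% of all tested genes. Without it Ccnd1 had an FDR of 0.0117 and was not called, and the median of the 22 was 0.57. Mmp9 and Plaur are also expressed by macrophages, whose markers summed to 167 to 318 CPM in NF-YA cKO and to at most 20.6 CPM in the controls, and the part of these cells in the difference was not tested.

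Of 18 genes of the dissociation and heat shock response, which moves with Fos and Egr1 when tissue is dissociated, 3 were called higher and none lower. Of all tested genes, 4.65% were called higher and 7.67% lower. The median of the 18 was 0.24. Hspd1, a mitochondrial chaperonin, was at 952, 1008 and 915 CPM in NF-YA cKO and at 443, 430 and 477 CPM in the controls (log2 fold change 1.09, FDR 0.000546 in edgeR). Mt1, a metallothionein, was at 49.6, 48.1 and 57.0 CPM against 25.0, 15.5 and 20.1 CPM (1.35, FDR 0.00215), and Nfkbia, the NF-kappa-B inhibitor, at 47.6, 39.2 and 31.7 CPM against 11.9, 19.5 and 12.99 CPM (1.41, FDR 0.00433). With control replicate 3 left out, 4 of the 18 were called higher and 3 lower, against 4.97% and 9.81% of all genes tested. The additional one called higher was Mt2, at 20.5, 16.4 and 18.1 CPM against 8.91, 4.31 and 10.7 CPM. Its log2 fold change was 1.20 (FDR 0.0236) from all libraries and 1.48 (FDR 0.00666) without that control. The 3 called lower were the heat shock genes Hspa1a and Hspa1b and Socs3, an inhibitor of cytokine signaling. Hspa1a was at 4.72, 4.78 and 5.50 CPM against 11.9, 8.95 and 5.56 CPM, with a log2 fold change of -0.81 (FDR 0.0576) from all libraries and -1.06 (FDR 0.00317) without that control. Hspa1b was at 15.5, 15.01 and 16.8 CPM against 43.2, 37.9 and 14.3 CPM, with -1.01 (FDR 0.0698) and -1.37 (FDR 0.000206). Socs3 was at 12.98, 6.39 and 9.02 CPM against 31.9, 29.1 and 11.4 CPM, with -1.35 (FDR 0.0423) and -1.70 (FDR 0.00248). As for Fos and Egr1, the third control was the lowest of the controls in all 3. Over the whole list it was the lowest control in 6 of the 18, against 38.0% of all tested genes. Hspa1a and Hspa1b are near-identical copies, so the division of reads between them is uncertain.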

How the data were processed

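Libraries were grouped by the genotype in their labels, which also give the replicate number. The labels do not say that the libraries of a genotype are separate cultures, so p-values measure the spread between these libraries. The authors made stranded libraries, aligned reads to mouse transcripts (mm10) with Bowtie2 and ran RSEM. The deposited expected counts carry no normalization, and reads that match more than 1 transcript are divided among them. The deposited TPM values are scaled by length and to a common sum. The deposited percent of each transcript is its part of the gene's TPM.

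Expected counts were rounded, and genes were tested where 2 or more libraries had over 10 counts, with edgeR 4.0.16 (TMM, quasi-likelihood test, genotype only, Benjamini-Hochberg adjustment) in R 4.3.3. CPM use library sizes after TMM. Calls needed an FDR under 0.01 and a change of over 1 on the log2 scale. Shares and transcripts were compared with exact permutation tests. The fit was tested on simulated data with changes larger than those of the 10 genes, so changes of their size were not tested. Coordinates are from GENCODE M21 (GRCm38) and promoters from RefSeq; motifs were chosen with the sequences known. Alternatives were DESeq2 1.42.0, its size factors, other filters, limma 3.58.1 on log2(TPM + 1) and log2(TPM + 0.1), a replicate block, an FDR of 0.05, shares of expected counts, and leaving out each library.

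The 10 genes and all lists were chosen with earlier results of these data known. Genes named besides the 10 are, from each pathway list, the called genes with the largest change (at most 4) and, where fewer than 2 were called, the 2 with the highest mean; for each of the 10, the 2 nearest profiles among genes whose mean reached 10 CPM; and defining cell markers. Egr3, Nr4a1, Arc, Zfp36, Dusp5, Mt2, Hspa1a, Hspa1b, Socs3, Xist and Ddx3y, and overlapping genes, fall outside this rule. The results of 3 genes are not reported here.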

Additional observations from a re-analysis of the deposited data

How the results depend on the processing

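The direction of Fos, Egr1, Fosl1, Fosl2, Jund and Ier2 was kept under all 15 alternatives. The FDR was under 0.05 in all 15 for Fosl1 and Fosl2, in 8 for Fos, in 9 for Egr1 and in 10 for Jund. The alternatives that only move the FDR limit to 0.05 keep the main fit, so direction and FDR could not change there. Genes of the 10 called higher numbered 1 without the filter (Fosl1, 1.03), 0 to 1 with a library left out and 1 at an FDR under 0.05 without a fold limit. Genes called lower numbered 2 with DESeq2, 0 to 2 with a library left out (Fosl2 without NF-YA cKO replicate 1; Fos and Egr1 without NF-YA fl/fl replicate 3), 2 at an FDR under 0.05 with the fold limit and 4 without it. Of the other immediate early genes, 0 were called higher with limma at either pseudocount, 0 to 2 with a library left out and 2 at an FDR under 0.05 without a fold limit; those called lower were 3 with DESeq2, 0 with limma on log2(TPM + 1), 2 on log2(TPM + 0.1), 0 to 5 with a library left out, and 3 and 8 at an FDR under 0.05 with and without the fold limit. The causes were not tested. Over all genes, 806 higher and 1331 lower calls became 177 to 890 and 523 to 1684 with a library left out, 231 and 704 with limma on log2(TPM + 1), 361 and 1067 on log2(TPM + 0.1), and 1163 and 2025 at an FDR under 0.05. Of the calls over all genes, 37.7% were higher in NF-YA cKO with edgeR, and 24.7% and 25.3% with limma on log2(TPM + 1) and log2(TPM + 0.1).

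Signs turned as follows. With a library left out, log2 fold changes ran from -0.772 to 0.0460 for Fosb, from -0.258 to 0.203 for Jun, from -0.262 to 0.0949 for Junb, from -0.729 to 0.141 for Egr2 and from -0.229 to 0.0323 for Map2k1. Jun and Map2k1 turned without NF-YA fl/fl replicate 3, and Fosb and Egr2 without NF-YA fl/fl replicate 2. As a share of expected counts the Fosl1 difference was 10.96 percentage points, against 21.9 of TPM. With a library left out, the difference ran from -2.99 to 7.58 percentage points for the Jun share, from -5.27 to 7.90 for the Junb share and from -4.72 to 5.56 for the main Egr2 transcript.

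The labels do not say whether libraries with the same replicate number were prepared together. Their deviations from the genotype means correlated with r of 0.21, -0.10 and 0.05, and replicates 1 and 3 matched their own number best. With a replicate block 0 of the 10 genes were called and 5 had an FDR under 0.05, and the log2 fold changes of Junb and Egr2 turned to 0.0119 and 0.00535.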
